A study of Mus musculus with 13 samples.

Results

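Structural myelin protein genes were followed through the sciatic nerve arrays of db/db and db/+ mice. They were 10 genes taken by symbol (Pmp22, Mbp, Pmp2, Mal, Mag, Cnp, Gjb1, Cldn19, Ncmap and Drp2), all 10 of which were measured among the 15437 genes of the table, each by 1 probe set. The mice were of the BKS strain and 24 weeks old. In db/db mice both copies of the leptin receptor gene Lepr carry the db mutation, and the animals become obese and diabetic, whereas db/+ mice carry 1 copy and serve as the nondiabetic control. There were 6 db/db arrays (samples 110, 111, 112, 409, 410 and 411) and 7 db/+ arrays (samples 101, 103, 104, 105, 106, 404 and 407). Nothing in the labels states that each array came from a separate animal, so p-values measure the spread between these samples. Every value given as a level is the authors' RMA log2 expression, and a difference is db/db minus db/+ on that scale. Levels of different probe sets are not comparable with each other.

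Myelin is the spiral of Schwann cell membrane that insulates a peripheral axon. In compact myelin the membranes lie pressed together, held at their inner faces by Mbp and spanned by proteins such as Pmp22. Noncompact myelin keeps cytoplasm between the membranes, at the paranodes, the incisures, the inner face toward the axon and the outer face toward the basal lamina, and holds adhesion, gap junction and tight junction proteins. In human, dosage changes and mutations of PMP22 and mutations of GJB1 cause inherited demyelinating neuropathy. Pmp22, Mbp, Pmp2 and Mal were counted as compact members, and Mag, Cnp, Gjb1, Cldn19, Ncmap and Drp2 as noncompact members.

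Each of the 10 genes had a lower mean in db/db than in db/+ nerve, and for 7 of them the difference passed the threshold over all genes (limma, Benjamini-Hochberg adjusted p under 0.05). All 6 noncompact members fell, with differences of -1.43 to -0.70 on the log2 scale. Of the 4 compact members Mal fell by 0.77, while Pmp22, Mbp and Pmp2 did not pass, at -0.22, -0.20 and -0.75. Among all genes measured, 11.7% passed the threshold with a lower and 13.4% with a higher level in db/db. By an exact two-tailed permutation test over arrays, unadjusted, all 10 members had a p below 0.05, as did 17.6% of all genes in that direction. The count of 7 became 4 on leaving out any 1 of db/db 110, 409, 410 and 411 and db/+ 104 and 106, and 10 on leaving out db/+ 407. The members' median difference was -0.76, beside 0.02 over all 15437 genes. In 0 of the 10 genes did the groups separate completely, a pattern that 3.51% of all genes showed with every db/db array below every db/+ array. Nor did any member's db/db arrays all lie below db/+ 105, 404 and 407, as they did in 9.99% of all genes. In whole nerve, fewer Schwann cells and less of a transcript per cell cannot be told apart.

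Not all db/+ arrays were alike. The mean level over 13 neuronal genes was 6.82 to 7.51 in db/db and 7.64 to 8.67 in db/+ 105, 404 and 407, but 11.61 to 12.34 in db/+ 101, 103, 104 and 106, which are therefore shown apart throughout. The array medians (8.63 to 8.71) differed little, and pairs of arrays correlated at 0.894 to 0.989 across genes. Without those 4, 6 db/db arrays were set against 3 db/+ arrays. All 10 differences kept their direction. At the adjusted threshold 0 of 10 passed (limma), beside 6.78% of all genes called lower. Before adjustment 3 had a p below 0.05 (limma, Cldn19, Gjb1 and Drp2), and the share of all genes at that looser cut was not taken. Of the 8 measured genes of Schwann cells in general, S100b had levels of 10.72 to 11.96 in db/db and 11.90 to 12.88 in db/+. The transcription factor gene Sox10 had levels of 7.60 to 9.32 in db/db and 8.68 to 10.06 in db/+. Not every gene of that list had such levels. Erbb3 was at most 4.31 in db/db and 3.27 to 5.04 in db/+, and Mia 4.69 to 5.21 and 4.50 to 6.70. Whether db/+ 101, 103, 104 and 106 held the labelled tissue alone was not tested. The 3' minus 5' level of actin control probe sets, which reflects RNA quality, was 0.485 to 0.916 in db/db, 0.399 to 1.14 in db/+ 105, 404 and 407, but 0.963 to 1.40 in db/+ 101, 103, 104 and 106, and its part in the results was not tested.

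To show the DNA in front of genes that moved together, the 250 bases before the most upstream listed start are given for the 3 members with the greatest differences that have an entry among RefSeq promoters (build GRCm38.p6). Capitals mark ACAAAG, a core of SOX factor sites, and GNGGGNGNG, a loose form of EGR factor sites, read on either strand. The windows are chr4:119255191-119255440 on the plus strand for Cldn19, chrX:101376126-101376375 on the plus strand for Gjb1 and chr7:30914923-30915172 on the minus strand for Mag, each upstream of the gene's first exon in that transcript.
Cldn19: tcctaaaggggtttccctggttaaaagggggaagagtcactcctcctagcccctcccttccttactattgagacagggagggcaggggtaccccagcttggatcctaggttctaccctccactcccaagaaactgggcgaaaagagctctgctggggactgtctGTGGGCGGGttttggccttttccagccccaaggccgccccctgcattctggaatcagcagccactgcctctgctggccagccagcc
Gjb1: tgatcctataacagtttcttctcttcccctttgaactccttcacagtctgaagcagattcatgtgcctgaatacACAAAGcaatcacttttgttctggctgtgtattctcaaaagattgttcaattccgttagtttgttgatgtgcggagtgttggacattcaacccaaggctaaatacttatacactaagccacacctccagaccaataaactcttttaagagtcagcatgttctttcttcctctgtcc
Mag: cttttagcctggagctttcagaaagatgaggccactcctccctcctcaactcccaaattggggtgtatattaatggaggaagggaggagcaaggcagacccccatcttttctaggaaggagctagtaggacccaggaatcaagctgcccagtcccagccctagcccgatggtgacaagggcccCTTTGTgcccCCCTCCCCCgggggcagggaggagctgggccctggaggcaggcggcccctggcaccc
The Cldn19 window held 1 GNGGGNGNG and 0 ACAAAG, the Gjb1 window 1 ACAAAG and 0 GNGGGNGNG, and the Mag window 1 of each. Promoter entries matched 7 of the 10 members, with 17 windows in all, since several genes have more than 1 listed start. ACAAAG occurred in windows of 3 of the 7 genes (5 of 17 windows, against 16.5% of all 32851 windows) and GNGGGNGNG in windows of 6 of the 7 genes (12 of 17 windows, against 40.1%). The 2 motifs were searched separately and may overlap, and the arrays do not show which start was used.

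Cldn19 encodes the claudin that forms the tight junctions of noncompact myelin. Its level on the db/db arrays had a lowest value of 7.44, a median of 8.55 and a highest value of 9.45, against 9.30, 10.19 and 10.51 on the db/+ arrays. Of the 6 db/db arrays 5 lay below every db/+ array, and only db/db 111 reached into the db/+ range, just above db/+ 404 and 407. The means were 8.53 ± 0.64 (SD, n = 6) in db/db and 9.97 ± 0.51 (SD, n = 7) in db/+. Cldn19 fell by 1.43 ± 0.30 (SE), a 2.70-fold lower level (limma, Benjamini-Hochberg adjusted p = 0.00451). The db/+ values of 10.45, 9.30 and 9.41 on arrays 105, 404 and 407, and of 9.61, 10.29, 10.19 and 10.51 on arrays 101, 103, 104 and 106, ran through one another. Without db/+ 101, 103, 104 and 106 the difference was -1.18, with a 95% interval of -2.07 to -0.29, and missed the threshold (limma, Benjamini-Hochberg adjusted p = 0.0834). On the remaining 9 arrays with the number series as a block, Cldn19 passed at -1.31 and was the only member to do so (limma, Benjamini-Hochberg adjusted p = 0.0251, 10.4% of all genes called lower).

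Gjb1 encodes the connexin of the gap junctions that link layers of noncompact myelin. It ranged from 5.79 through a median of 6.81 to 7.42 on the db/db arrays, and from 7.39 through 8.02 to 8.77 on the db/+ arrays. The groups met at a single point, where db/db 111 stood beside db/+ 404 and 407. Gjb1 fell by 1.29 ± 0.28 (SE), with means of 6.67 ± 0.59 (SD, n = 6) in db/db and 7.96 ± 0.48 (SD, n = 7) in db/+ (limma, Benjamini-Hochberg adjusted p = 0.00535). Db/+ 105, 404 and 407 gave 8.02, 7.40 and 7.39, and db/+ 101, 103, 104 and 106 gave 7.83, 8.15, 8.16 and 8.77. Against the first set alone the difference was -0.93 (95% interval -1.69 to -0.18, limma, Benjamini-Hochberg adjusted p = 0.102).

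Drp2 encodes the dystrophin-related protein that, with periaxin and dystroglycan, ties the outer Schwann cell membrane to the myelin beneath it. Its levels were 7.47, 8.84 and 9.39 (lowest, median and highest) in db/db and 9.01, 9.77 and 10.45 in db/+. Db/db 111 overlapped with db/+ 407 alone, and 6 of the 7 db/+ arrays lay above every db/db array. Drp2 fell by 1.20 ± 0.29 (SE), with means of 8.67 ± 0.65 (SD, n = 6) in db/db and 9.87 ± 0.49 (SD, n = 7) in db/+ (limma, Benjamini-Hochberg adjusted p = 0.0103). It read 9.72, 9.77 and 9.01 on db/+ 105, 404 and 407, and without the other db/+ arrays the difference was -0.83 (limma, Benjamini-Hochberg adjusted p = 0.175).

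Mag, the adhesion molecule of the membrane that faces the axon, had the widest spread of the members in db/+. It was 6.59, 7.69 and 8.51 (lowest, median and highest) in db/db and 7.67, 8.81 and 9.99 in db/+. The 3 db/+ arrays 105, 404 and 407, at 8.81, 8.11 and 7.67, lay within or just above the db/db range, and arrays 103, 104 and 106, at 9.09, 9.45 and 9.99, lay above it. Array 101 gave 8.36, inside the db/db range. Mag fell by 1.13 ± 0.38 (SE), with means of 7.65 ± 0.65 (SD, n = 6) in db/db and 8.78 ± 0.80 (SD, n = 7) in db/+ (limma, Benjamini-Hochberg adjusted p = 0.0435), but the difference was -0.55 without db/+ 101, 103, 104 and 106 (adjusted p = 0.396). Mag missed the threshold on leaving out any 1 of db/db 110, 112, 409, 410 and 411 and db/+ 103, 104, 105 and 106, at -1.21 to -0.92 (limma, Benjamini-Hochberg adjusted p = 0.0522 to 0.0948). The db/+ division was larger in Mag than in any other member, with the mean of db/+ 101, 103, 104 and 106 higher by 1.03 than that of db/+ 105, 404 and 407, against 0.20 to 0.66 in the other 9.

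Cnp encodes the cyclic nucleotide phosphodiesterase of the cytoplasm-filled channels. It was 9.96, 10.61 and 11.08 in db/db and 10.74, 11.37 and 11.83 in db/+ (lowest, median and highest), with 5 db/db arrays below every db/+ array. Cnp fell by 0.75 ± 0.21 (SE, limma, Benjamini-Hochberg adjusted p = 0.0196). Ncmap, named for its place in noncompact myelin, was 10.21, 11.38 and 11.90 in db/db and 11.55, 12.18 and 12.28 in db/+. It fell by 0.70 ± 0.24 (SE), close to the threshold (limma, Benjamini-Hochberg adjusted p = 0.0479), and again db/db 111 alone overlapped with db/+. Ncmap missed the threshold on leaving out any 1 array other than db/db 111 and db/+ 404 and 407, at -0.74 to -0.49 (limma, Benjamini-Hochberg adjusted p = 0.0558 to 0.0908), whereas Cnp, Gjb1, Cldn19 and Drp2 passed in each of the 13 fits that left out 1 array. Without db/+ 101, 103, 104 and 106 the Cnp difference was -0.43 and that of Ncmap -0.51 (limma, Benjamini-Hochberg adjusted p = 0.264 and 0.345).

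**Figure D1:**
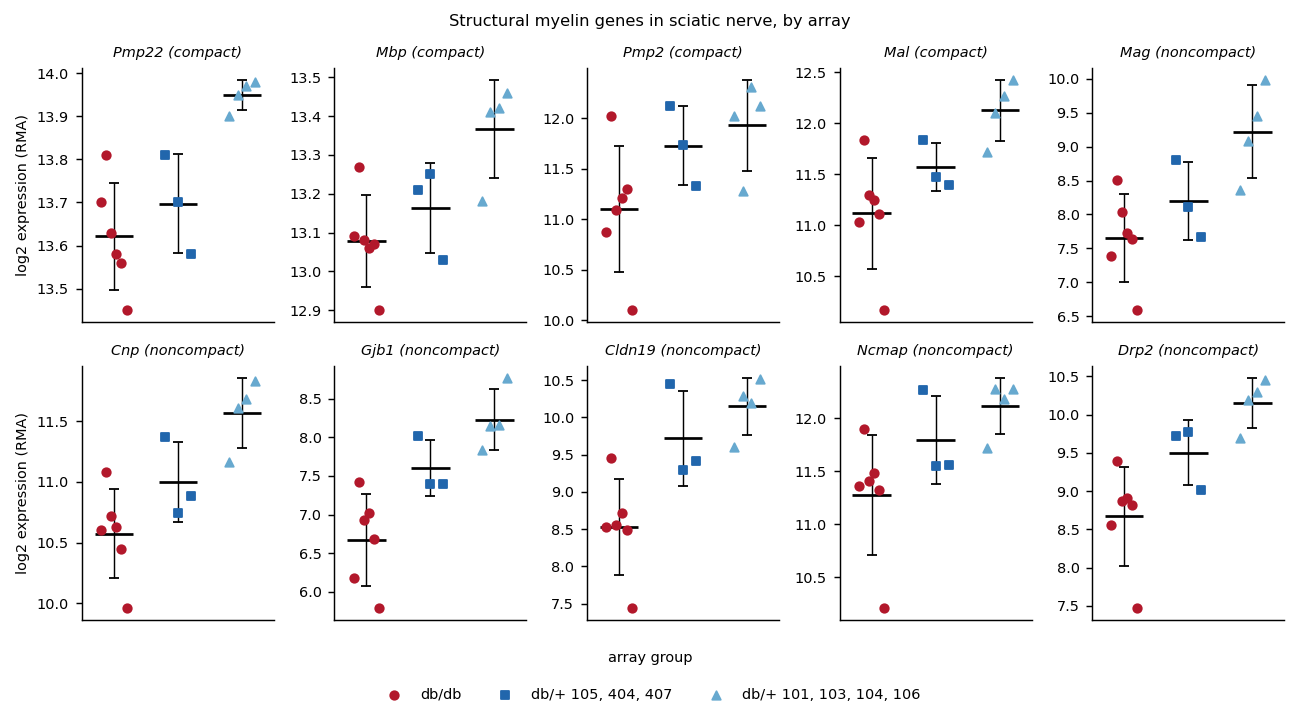
RMA log2 expression (vertical axes, scaled per gene and not starting at 0) of the 10 structural myelin genes, with a point for each array in array order, a line at the mean and bars of 1 SD. In every panel the highest db/db point is array 111 and the lowest is array 411, and the db/db mean lies below both db/+ means.

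Among compact members Mal, a small membrane protein of lipid-rich domains, was 10.17, 11.18 and 11.84 in db/db and 11.40, 11.84 and 12.42 in db/+ (lowest, median and highest). Of the 6 db/db arrays 5 lay below every db/+ array. Mal fell by 0.77 ± 0.24 (SE, limma, Benjamini-Hochberg adjusted p = 0.0349). Db/+ 105, 404 and 407 gave 11.84, 11.47 and 11.40, and against them alone the difference was -0.45 (limma, Benjamini-Hochberg adjusted p = 0.361). Mal also missed the threshold on leaving out any 1 of db/db 110, 409, 410 and 411 and db/+ 103, 104 and 106, at -0.80 to -0.58 (limma, Benjamini-Hochberg adjusted p = 0.0537 to 0.0695).

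Pmp2, the fatty acid binding protein of myelin, was 10.10, 11.15 and 12.02 in db/db and 11.28, 12.02 and 12.31 in db/+. The difference of -0.75 (95% interval -1.33 to -0.17) had the size of that of Mal but missed the threshold (limma, Benjamini-Hochberg adjusted p = 0.0575). It passed on leaving out db/db 111, db/+ 103 or db/+ 407, at -0.93, -0.84 and -0.83. The 2 sets of db/+ arrays overlapped, with 12.12, 11.74 and 11.33 on arrays 105, 404 and 407 and 12.02, 11.28, 12.31 and 12.12 on arrays 101, 103, 104 and 106. Without arrays 101, 103, 104 and 106 the difference was -0.63, with an interval of -1.43 to 0.16.

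Pmp22, a membrane-spanning protein of compact myelin, and Mbp, which holds its inner membrane faces together, differed least. Both lay near the top of the scale, where the highest value of any probe set was 14.61 and RMA can compress folds. The part of such compression in their small differences was not tested. Pmp22 was 13.45, 13.60 and 13.81 in db/db and 13.58, 13.90 and 13.98 in db/+ (lowest, median and highest), and Mbp 12.90, 13.08 and 13.27 in db/db and 13.03, 13.25 and 13.46 in db/+. The db/db arrays shared most of the range of db/+ 105, 404 and 407, which gave 13.81, 13.70 and 13.58 for Pmp22 and 13.21, 13.25 and 13.03 for Mbp. The differences were -0.22 (95% interval -0.41 to -0.03) for Pmp22 and -0.20 (95% interval -0.40 to -0.01) for Mbp (limma, Benjamini-Hochberg adjusted p = 0.0878 and 0.111). On leaving out db/+ 407 both passed, at -0.26 and -0.25 (limma, Benjamini-Hochberg adjusted p = 0.0319 and 0.0445). Without db/+ 101, 103, 104 and 106 they were -0.08 (-0.32 to 0.16) and -0.09 (-0.32 to 0.15).

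**Figure D2:**
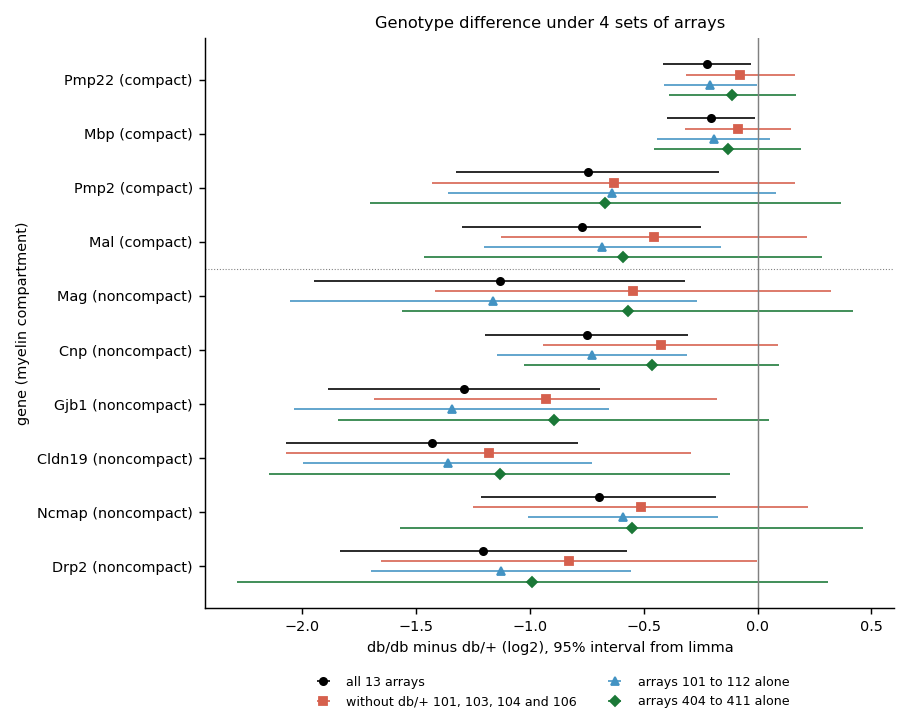
Difference between db/db and db/+ (horizontal axis, log2) for each gene, as the limma estimate with its 95% interval, over 4 sets of arrays. All point estimates lie left of 0, those of Pmp22 and Mbp lie nearest to it, and for each gene the estimate without db/+ 101, 103, 104 and 106 lies nearer to it than the one over all arrays.

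The contrast between the compartments was then set out by array. For each gene the level was taken relative to its mean over the 13 arrays, and these deviations were averaged over the 4 compact and the 6 noncompact members. The compact mean deviation was -0.26 ± 0.35 (SD, n = 6) in db/db and 0.22 ± 0.24 (SD, n = 7) in db/+. The noncompact mean deviation was -0.58 ± 0.56 (SD, n = 6) in db/db and 0.50 ± 0.48 (SD, n = 7) in db/+. Compact minus noncompact was 0.39, 0.10, 0.18, 0.18, 0.35 and 0.73 on db/db 110, 111, 112, 409, 410 and 411. It was -0.37, 0.05 and 0.01 on db/+ 105, 404 and 407, and -0.03, -0.59, -0.34 and -0.65 on db/+ 101, 103, 104 and 106. All 6 db/db arrays thus lay above all 7 db/+ arrays, db/+ 101, 103, 104 and 106 included or not, with db/db 111 (0.10) and db/+ 404 (0.05) the closest. The mean difference was 0.60 over all arrays and 0.43 without those 4. The noncompact deviation was the larger in size at both ends, at -1.57 against -0.84 on db/db 411 and 1.16 against 0.50 on db/+ 106. An array low in both sets can therefore score high on compact minus noncompact. On db/db 111 the compact deviation was the larger, at 0.25 against 0.14. The part of this difference in amplitude in the separation was not tested. The averaged compact score had the narrower spread over arrays in both genotypes, which does not hold for each member: the db/db SD was 0.63 for Pmp2 and 0.54 for Mal, against 0.37 for Cnp. No test was made on this score, because its genes were chosen with results known.

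The members of each compartment differed among themselves, and in the compact set Pmp22 and Mbp stood apart from Mal and Pmp2. Differences ran from -0.77 to -0.20 in the compact and from -1.43 to -0.70 in the noncompact members, so that Mal and Pmp2 overlapped with Cnp and Ncmap. The differences were also expressed in units of each gene's residual SD as moderated by limma, which draws each SD toward a common value. A gene with a narrow range is therefore not set on a fully equal footing. In these units the differences ran from -1.77 to -1.27 in the compact and from -2.68 to -1.62 in the noncompact members. By this measure Mal (-1.77) lay beyond Mag (-1.67) and Ncmap (-1.62).

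**Figure D3:**
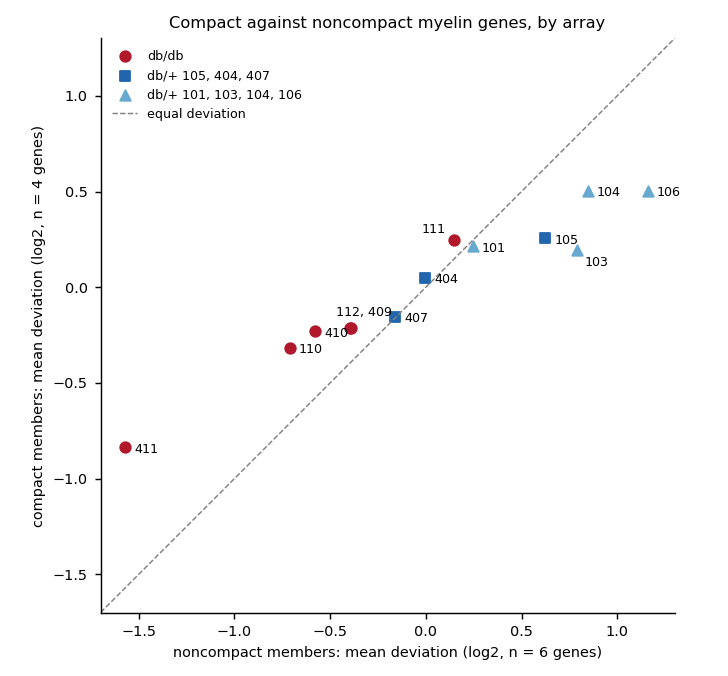
Mean deviation from the 13-array mean (log2) of the 4 compact members (vertical axis) against that of the 6 noncompact members (horizontal axis), with 1 point per array labelled by sample number and a dashed line of equal deviation. All 6 db/db arrays lie above the line, and array 411 lies lowest on both axes, at -0.84 and -1.57.

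Within db/db the members shared the arrays at both ends, while the order of the other 4 arrays differed between genes. Array 411 was the lowest and array 111 the highest of the 6 db/db arrays in all 10 genes, a pattern shown by 4.89% of all genes. The gap between them ran from 0.36 (Pmp22) to 2.01 (Cldn19) with a median of 1.68. The mean of 9 skeletal muscle genes was 12.16 on db/db 411 and 7.97 on db/db 111. Among db/+ arrays muscle genes were also high on samples 407 and 101 (11.56 and 12.12, against 7.36 to 9.43 on the other 5), and these were the arrays with the lowest noncompact mean deviation within their sets (-0.16 and 0.25). Db/db 112 had a muscle mean of 10.46 with members in the middle of the db/db range, and db/db 110 one of 7.52 with a noncompact mean deviation of -0.71, the lowest after that of 411. The part of muscle RNA in these values was not tested. By limma 0 of the 9 muscle genes differed by genotype, and 1 of them, Pvalb, had an unadjusted p below 0.05.

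Among db/+ arrays 101, 103, 104 and 106 the members followed a common order too. The level increased in the order 101, 103, 104 and 106 in 7 of the 10 members, the exceptions being Pmp2, Cldn19 and Ncmap, and in 6.26% of all genes. Mog and Mobp, myelin genes of central nervous system oligodendrocytes, followed the same order. Mog was 3.64 to 4.22 in db/db and 3.95 to 4.15 in db/+ 105, 404 and 407, but 7.37, 8.36, 9.24 and 10.04 on db/+ 101, 103, 104 and 106. Mobp was 4.41 to 5.01 in db/db and 4.66 to 5.12 in db/+ 105, 404 and 407, but 5.86, 6.68, 7.43 and 8.16 on those arrays. The mean of 7 oligodendrocyte genes was 4.38 to 4.84 in db/db, 4.62 to 4.68 in db/+ 105, 404 and 407, but 5.65 to 7.52 in db/+ 101, 103, 104 and 106. Mag, Cnp, Mal, Mbp and Gjb1 are known to be expressed in oligodendrocytes as well as in Schwann cells, and the part of oligodendrocyte RNA in their levels was not tested. Of the 7 oligodendrocyte genes 1 fell, the transcription factor gene Nkx2-2, by 1.75 over all arrays, and it stood at -0.65 without db/+ 101, 103, 104 and 106 (limma, Benjamini-Hochberg adjusted p = 0.0328 and 0.342).

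The genotype difference was also read within the number series of the samples, whose meaning the labels do not state. In arrays 101 to 112, with 3 db/db and 5 db/+ arrays, Cldn19, Drp2, Gjb1 and Cnp passed at -1.36, -1.13, -1.34 and -0.73 (8.67% of all genes called lower). In arrays 404 to 411, with 3 db/db and 2 db/+ arrays, 0 of 10 members passed by limma, beside 4.17% of all genes called lower. Before adjustment 1 member had a p below 0.05 (limma, Cldn19, at -1.13), and the share of all genes at that looser cut was not taken. With the series as a block the same 7 members as over all arrays passed (12.9% of all genes called lower), and Cldn19 fell by 1.27, Gjb1 fell by 1.17 and Drp2 fell by 1.07. When arrays were weighted by their fit, all 10 members passed, as did 19.1% of all genes in that direction. The test of the difference between the series gave an adjusted p of 0.661 to 0.982 for the 10 members (limma, Benjamini-Hochberg), with a lowest unadjusted p of 0.364. By that test 0 of all genes passed and 2360 had an unadjusted p below 0.05. Members had lower means in the higher series within both genotypes, with db/+ 101, 103, 104 and 106 left out. That leaves 1 db/+ array, 105, in the lower series. Cldn19 averaged 8.22 on db/db 409, 410 and 411 and 8.85 on db/db 110, 111 and 112. It averaged 9.35 on db/+ 404 and 407 and read 10.45 on db/+ 105, but 9.61 on db/+ 101. Single db/db arrays did not all follow: Gjb1 was 6.18 on db/db 110, below 7.02 on 409 and 6.69 on 410.

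Regulators of myelination went in both directions. Egr2, the transcription factor that drives myelin genes in Schwann cells, had a lowest level of 11.21 and a highest of 12.45 in db/db, against 11.11 and 12.51 in db/+. Its difference of -0.19 ± 0.25 (SE) did not pass, and it was 0.18 without db/+ 101, 103, 104 and 106 (limma, Benjamini-Hochberg adjusted p = 0.602 and 0.743). Sox10 fell by 0.99 ± 0.26 (SE), with 8.48 ± 0.56 (SD, n = 6) in db/db and 9.47 ± 0.43 (SD, n = 7) in db/+ (limma, Benjamini-Hochberg adjusted p = 0.0151). Dhh, which encodes the Schwann cell signal desert hedgehog, fell by 0.90, Erbb2, a neuregulin co-receptor gene, fell by 0.39, and Tead1, a transcription factor gene of the Hippo pathway, rose by 0.70. Of 14 measured regulators 3 fell and 1 rose, with a median of -0.13. Without db/+ 101, 103, 104 and 106, 6.12% of all genes were called higher and Tead1 passed at 1.08 (limma, adjusted p = 0.0162), whereas Sox10, Dhh and Erbb2 stood at -0.74, -0.66 and -0.51 and did not (limma, adjusted p = 0.187, 0.246 and 0.0597).

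Of the Schwann cell lists outside the structural set, those of general and of nonmyelinating and repair Schwann cells had most of their genes called. Those of other myelin genes and lipid enzymes had a minority called. Sox10, Dhh and Erbb3 were counted both among general Schwann cell genes and among the regulators. Of 8 genes of Schwann cells in general 6 fell (median -0.93), led by S100b, the calcium-binding protein used as a Schwann cell marker, which fell by 1.07 ± 0.21 (SE, limma, Benjamini-Hochberg adjusted p = 0.00358). Of 27 other genes of peripheral myelin and its junctions 8 fell and 1 rose (median -0.28). Ndrg1, which is mutated in a human demyelinating neuropathy, fell by 0.52, the junctional adhesion gene Jam3 fell by 1.18 and the cadherin gene Cdh1, of the adherens junctions of noncompact myelin, fell by 1.45. Fgd4, also a neuropathy gene in human, rose by 0.51. Fgd4, Tead1, Fa2h, Kcnj10, Dcn, Fabp7, Kcnj16, Mia and Erbb3 were singled out after their values were seen. Of 10 myelin lipid enzyme genes Elovl7, a fatty acid elongase gene, and Fa2h, which hydroxylates myelin fatty acids, fell (median -0.24). Elovl7 fell by 1.69. Without db/+ 101, 103, 104 and 106 the general Schwann cell, myelin and junction, and lipid enzyme lists had 0 members past the threshold by limma. There 5 of 27 myelin and junction genes had an unadjusted limma p below 0.05, 4 of them lower and 1, Fgd4, higher. So did 0 of 10 lipid enzyme genes and 2 of 8 general Schwann cell genes, S100b lower and Erbb3 higher. The share of all genes at that looser cut was not taken. Ndrg1, Jam3, Cdh1, S100b and Elovl7 stood at -0.43, -0.72, -0.69, -0.67 and -0.53.

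Of 11 measured genes of nonmyelinating and repair Schwann cells 6 fell and 1 rose (median -0.77). Ngfr, which encodes a receptor of neurotrophins, fell by 1.21, and Ncam1, a cell adhesion gene, fell by 1.14. Btc, the growth factor gene betacellulin, rose by 1.46 ± 0.28 (SE), with 9.14 ± 0.50 (SD, n = 6) in db/db and 7.68 ± 0.58 (SD, n = 7) in db/+ (limma, Benjamini-Hochberg adjusted p = 0.00303). The counts were 3 lower and 1 higher without db/+ 101, 103, 104 and 106 (median -0.40). Ngfr and Btc passed there, at -0.65 and 1.24 (limma, adjusted p = 0.0467 and 0.0174), and Ncam1 did not, at -0.62 (adjusted p = 0.199).

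**Figure D4:**
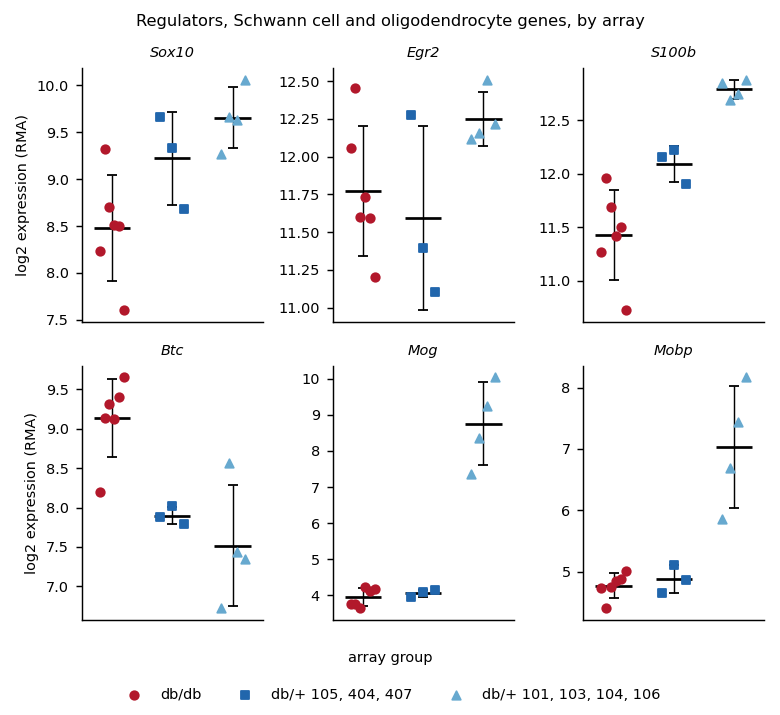
RMA log2 expression (vertical axes, scaled per gene and not starting at 0) of regulators (Sox10, Egr2), Schwann cell genes (S100b, Btc) and oligodendrocyte genes (Mog, Mobp), with a point for each array in array order, a line at the mean and bars of 1 SD. Mog exceeds 7 on db/+ 101, 103, 104 and 106 alone, and the Egr2 points of db/db and db/+ share their range.

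Genes of other cell types moved beside the members. Of 13 neuronal genes 11 fell (median -3.22), and 4 did without db/+ 101, 103, 104 and 106. Of 5 satellite glia genes, whose mean was at most 9.003 in db/db and 8.24 in db/+ 105, 404 and 407 but at least 9.76 in db/+ 101, 103, 104 and 106, Slc1a3 fell by 0.90 and Kcnj10 fell by 2.60. Without those arrays Slc1a3 passed too (-0.93), while Kcnj10 stood at -0.64 and did not (limma, Benjamini-Hochberg adjusted p = 0.0759). Fabp7 and Kcnj16 were higher in db/db there, at 1.78 and 1.27, without passing (limma, Benjamini-Hochberg adjusted p = 0.0908 and 0.130). The list median there was -0.04. Of 14 adipocyte genes 7 rose (median 0.60), with a list mean of 11.95 to 12.30 in db/db, 11.58 to 12.02 in db/+ 105, 404 and 407, but 10.90 to 11.74 in db/+ 101, 103, 104 and 106. Of 10 macrophage genes 4 rose (Trem2, Cd68, Adgre1 and Itgam, median 0.35), with a list mean of 11.21 to 11.81 in db/db, 10.91 to 11.74 in db/+ 105, 404 and 407, but 10.57 to 10.83 in db/+ 101, 103, 104 and 106. On the arrays other than db/+ 101, 103, 104 and 106, 4 adipocyte genes were called higher and 1 lower (median 0.27), and 1 macrophage gene, Trem2, was called higher (median 0.03). Of 9 perineurial and fibroblast genes Sfrp4 and Dcn fell (median -0.05), and of 8 endothelial genes Tek fell and Cdh5 and Esam rose (median -0.03). The part of these cell types in the members' differences was not tested.

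The genes whose levels ran most like the members' were sought over the whole table, by the root mean square difference between centred levels over the 13 arrays. Nearest to the mean of the compact members were Plekhb1 (0.094), Cd200 (0.124), Ndrg1 (0.135), Fzd3 (0.141) and Fmnl2 (0.149), against a median of 0.498 over all other genes. Nearest to the mean of the noncompact members were Prss12 (0.114), Fxyd3 (0.130), Sox10 (0.151), Mboat2 (0.161) and a probe set unnamed here (0.168), against a median of 0.811. The members themselves lay between 0.217 and 0.288 from the compact mean and between 0.173 and 0.246 from the noncompact mean. Because these genes were picked on the same arrays for their likeness to the members, a genotype difference like the members' follows from the choice, and none is tested here.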

How the data were processed

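Sciatic nerve RNA was amplified and carried a biotin label, per the labels' protocols, and each sample has 1 array in 1 colour. Values in the deposited table are on a log2 scale. The authors obtained them with RMA, according to the submitters' processing notes, and they entered the tests without further normalization. Neither the RMA version nor the array design is stated in those notes. RMA sets the arrays to a common distribution, which removes differences in total signal and can compress folds at both ends of the scale. Of 15479 probe sets 42 controls were left out. A single gene symbol belonged to 14801 of the remaining 15437, and 636 had none.

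The genotypes were compared in all 15437 genes by lmFit and eBayes (limma 3.58.1, R 4.3.3). P-values from both tails were adjusted over the whole table by Benjamini-Hochberg, at a threshold of 0.05. In simulated data for all 15437 genes in this comparison, 200 were changed, and the fit found 76% of the genes shifted by 1 log2 unit and 96% of those shifted by 2, while 9 of its 181 calls were false. The simulated noise was independent between genes and arrays and held no division of the db/+ arrays. These shares therefore need not hold for the measured arrays. Arrays give no read depth, and precision is limited by how many there are. Alternatives were leaving out arrays, the number series apart or as a block, another moderation, normalization, weighting or filter, and an exact permutation test. The members, the 13 other lists, the alternatives and the rule for named genes were chosen with earlier results of these data known. The rule took the members, from each list the 3 called genes of smallest p (or the 1 gene of smallest p where fewer passed), the defining genes that were measured, and the 5 nearest profiles per compartment. Summaries were made in Python 3.11.15 with pandas 2.3.3.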

Additional observations from a re-analysis of the deposited data

Results flagged for a closer look

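Of 26 sets of values tested for an outlying array (10 genes and 3 compartment scores in each genotype), 1 stood out, where chance gives about 1 in 20. Ncmap on db/db 411 was 10.21, while the other 5 db/db arrays lay between 11.32 and 11.90. The gap to the nearest array took a share of 0.655 of the range of the db/db arrays. Without db/db 411 Ncmap stood at -0.49 (limma, Benjamini-Hochberg adjusted p = 0.0696) in place of -0.70.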

How the results depend on the processing

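All 10 genes had a lower mean in db/db under every alternative tried, and no direction reversed. Without db/+ 101, 103, 104 and 106, 0 members passed and the genes past the threshold numbered 1992, with Mal at -0.45, Mag -0.55, Cnp -0.43, Gjb1 -0.93, Cldn19 -1.18, Ncmap -0.51 and Drp2 -0.83. On the remaining 9 arrays with the number series as a block 1 member (Cldn19) passed, and Mal stood at -0.54, Mag -0.67, Cnp -0.51, Gjb1 -1.004, Ncmap -0.61 and Drp2 -0.91. In arrays 101 to 112, 4 members passed, and Mal, Mag and Ncmap missed at -0.68, -1.16 and -0.59. In arrays 404 to 411, 0 members and 1404 genes passed, with Mal at -0.59, Mag -0.57, Cnp -0.47, Gjb1 -0.90, Cldn19 -1.13, Ncmap -0.55 and Drp2 -0.99. These sets hold fewer arrays. Mag missed at -1.08 after renewed quantile normalization and Ncmap at -0.65 with arrays centred on their medians, and the cause was not tested. Array weights called 6525 genes and all 10 members, Pmp22 at -0.32, Mbp at -0.30 and Pmp2 at -0.86. That fit kept db/+ 101, 103, 104 and 106, and its neuronal median was -4.25, against -3.22 unweighted. Pmp22 (-0.22) and Pmp2 (-0.75) also passed under moderation by intensity, plain or robust, and Pmp2 (-0.75) when the dimmest 25% of genes were left out. By the two-sided exact permutation test over arrays, unadjusted, all 10 passed (beside 17.6% of all genes, lower in db/db), Pmp22 (-0.22), Mbp (-0.20) and Pmp2 (-0.75) included, with p = 0.0198, 0.0303 and 0.0245.

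Leaving out 1 array at a time gave -0.26 to -0.19 for Pmp22, -0.25 to -0.17 for Mbp, -0.93 to -0.55 for Pmp2, -0.92 to -0.58 for Mal, -1.32 to -0.92 for Mag, -0.85 to -0.63 for Cnp, -1.44 to -1.11 for Gjb1, -1.61 to -1.21 for Cldn19, -0.82 to -0.49 for Ncmap and -1.35 to -0.96 for Drp2. The members called ranged from 4 (without db/db 110, 409, 410 or 411 or db/+ 104 or 106) to 10 (without db/+ 407), and the genes past the threshold from 2893 to 4529. The compact minus noncompact difference lay between 0.39 and 0.65 under the sets of arrays, blocks, scalings and class definitions tried, and was 0.73 with array weights, an alternative chosen after seeing the data. No paired analysis was possible because db/db and db/+ share no sample number.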
